A study of Homo sapiens with 37 samples.

Results

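The mRNAs of the small ribosomal subunit proteins were followed in RNA labelled near 5 APEX fusion proteins and in APEX-eIF4A cells under stress. The members were the cytosolic RPS genes with RPSA and FAU, taken by a fixed list of Ensembl gene IDs. All 32 were present among the 60483 IDs of each of 2 count tables. All 32 also passed the filter on low counts, which kept 12427 IDs in the table of unstressed cells and 16678 in the table of the stress experiment. The files pair no ID with a gene symbol, so single members are given here by versioned Ensembl ID, and which protein an ID encodes is not stated.

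Every library came from HEK293T, a human embryonic kidney line, whose cell type markers could not be looked up by symbol in these files. APEX is an engineered peroxidase that tags nearby RNA with biotin. All groups, controls included, received biotin-phenol (500 µM, 30 min) and H2O2 (1 mM, 1 min), and their RNA was extracted with TRIzol. Input is total RNA of such cells, and pulldown is RNA held on streptavidin beads. Unstressed cells carried 1 of 5 fusions (APEX-eIF4A, APEX-eIF4E, APEX-GFP, C1-APEX and APEX-CBX1), each measured in 2 inputs and 2 pulldowns. CBX1 sits on chromatin, C1-APEX lies at the endoplasmic reticulum, eIF4E binds the mRNA cap, eIF4A is the helicase of the same initiation complex, and GFP is untargeted. The stress table held APEX-eIF4A cells in 5 conditions: T0 without stress, T4 and T20 of a heat shock series, DMSO, and hippuristanol, an inhibitor of eIF4A. Each fraction had 2 libraries at T0, T20 and under hippuristanol and 1 at T4, and DMSO had 1 input and 2 pulldowns. The sources used here give neither the unit of T nor the dose of hippuristanol, and the hippuristanol inputs were grouped by title because their stress label reads heat shock. No label ties replicates to separate cultures, and p-values therefore rest on a spread between libraries that may be technical.

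The 40S subunit is built from an 18S rRNA and a set of small proteins that every growing cell makes in large amounts. Their mRNAs are short and abundant, and most belong to the TOP class. A TOP mRNA starts with a C at the cap followed by an unbroken run of pyrimidines. The mTOR pathway controls their translation through this run, in part through LARP1, which binds the cap and the run and competes with eIF4E.

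The start sites of the family were read from the RefSeq promoter table (GRCh38.p14) by symbol, because the run at the start is what defines a TOP mRNA. Of 32 family symbols, 25 had a promoter there, with 28 promoters in all. A C at the annotated start followed by at least 4 further C or T bases was present in 19 of the 25 genes (76.0%), against 1385 of the 27280 other genes of the table (5.08%). With a start allowed up to 5 bases away, the shares were 84.0% and 25.2%. The following windows hold 15 bases before and 15 bases from the start, 5′ to 3′ on the gene's strand, with the pyrimidine run from the start in capitals. The first 6 show the run at lengths from 14 bases down to 7, and the last 2 are members of the family with no run at the annotated start.
RPS24, chr10:78033848-78033877, plus strand: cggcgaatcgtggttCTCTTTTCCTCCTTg
RPS21, chr20:62387088-62387117, plus strand: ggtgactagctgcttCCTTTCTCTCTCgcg
RPS12, chr6:132814554-132814583, plus strand: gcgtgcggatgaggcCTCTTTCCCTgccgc
RPS6, chr9:19380222-19380251, minus strand: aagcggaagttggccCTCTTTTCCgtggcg
FAU, chr11:65122120-65122149, minus strand: cgccctcgcttcttcCTCTTTCTCgactcc
RPSA, chr3:39406705-39406734, plus strand: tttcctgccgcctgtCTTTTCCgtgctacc
RPS29, chr14:49598696-49598725, minus strand: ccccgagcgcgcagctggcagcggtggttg
RPS4X, chrX:72277234-72277263, minus strand: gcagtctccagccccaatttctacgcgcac
A match describes the letters at an annotated start and says nothing of where transcripts begin in these cells. The windows could not be tied to the counts of single IDs, since no table used here pairs them.

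Total counts were 1419968 to 2629957 in the 10 unstressed inputs and 1718517 to 3276410 in the 10 unstressed pulldowns. Those of the stress table were 4540426 to 7782943 over 8 inputs and 707356 to 1221213 over 9 pulldowns. The 10 highest IDs took 55.6% to 75.3% of the counts in unstressed libraries, so scaling by total count follows those few IDs. Levels below are CPM, the count of an ID relative to its library's TMM-scaled total, and differences are log2 fold changes from edgeR, each with its standard error. Among unstressed pairs the C1 pulldowns stood apart: their log2 CPM correlated at 0.761 across IDs, against 0.904 to 0.954 for the others. The members of C1 pulldown replicate 1 lay below those of replicate 2 by a median of 0.58 on the log2 scale. Pulldown pairs of the stress table correlated less well than the C1 pair, at 0.613 for T20, 0.615 for DMSO, 0.649 for T0 and 0.730 for hippuristanol. Input pairs there correlated at 0.943 to 0.966. The sources used here do not say how reads with several matches were handled. Ribosomal protein genes have many processed pseudogenes, so the counts of single members are uncertain to that extent.

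In unstressed cells the members were lower in the pulldown than in the input of every construct. The log2 fold change was below 0 for all 32 members in all 5 constructs under TMM scaling, while with scaling by library size the members' median lay above 0 for eIF4E and eIF4A. The members' median was -0.85 in GFP, -0.84 in CBX1, -0.77 in C1, -0.68 in eIF4E and -0.58 in eIF4A cells, and the median over all tested IDs lay between 0.00 and 0.02. As ratios of pulldown to input, these medians were 0.554, 0.558, 0.586, 0.626 and 0.670. At an adjusted p under 0.05 (edgeR quasi-likelihood test, Benjamini-Hochberg over all IDs), 20 of 32 members were called lower for CBX1, where 2.31% of all tested IDs were. For C1 the count was 19 members against 3.56% of IDs, and for GFP it was 24 members against 2.09%. For eIF4E 8 members were called lower against 1.29% of IDs, and for eIF4A 5 members against 1.02%. No member was called higher in any construct by edgeR or by DESeq2 (which gave no adjusted p to 1 member for GFP, 4 for eIF4E and 4 for eIF4A), while edgeR called 1.6% of all IDs higher in CBX1, 2.89% in C1, 1.95% in GFP, 1.22% in eIF4E and 1.16% in eIF4A cells. At an unadjusted p under 0.05 the members lower numbered 29 in CBX1, 23 in C1, 27 in GFP, 25 in eIF4E and 22 in eIF4A cells, against 8.06%, 11%, 8.09%, 5.67% and 5.31% of all IDs, and 0 members were higher.

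**Figure D1:**
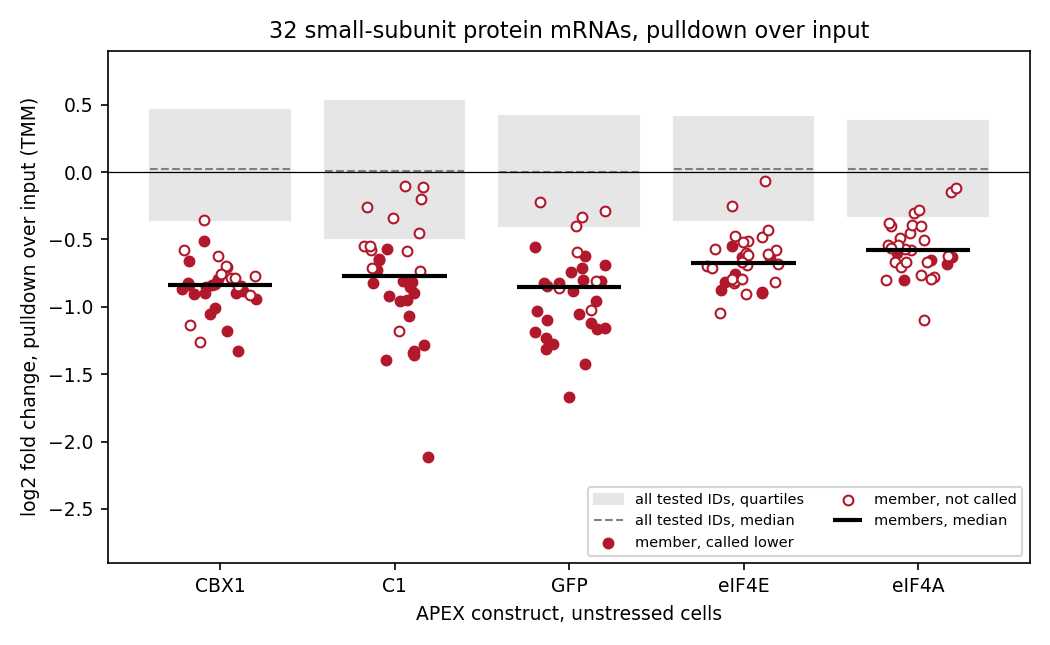
Log2 fold change of pulldown over input (TMM scaling, 2 libraries a fraction) for the 32 members in each of 5 APEX constructs in unstressed cells. Each point is a member, filled where edgeR called it lower, the black bar is the members' median, and the grey box and dashed line are the quartiles and median of all 12427 tested IDs. All points lie below 0, and the members' median lies between -0.85 and -0.58; scaling by library size puts the medians of eIF4E and eIF4A above 0.

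The separation was also seen library by library. Both pulldowns lay below both inputs for 32 of 32 members in CBX1 cells, where 24.7% of all tested IDs were separated in that direction. The same held for 27 members in C1 cells (23.4% of IDs), 31 in GFP cells (25.5%), 29 in eIF4E cells (21.6%) and 30 in eIF4A cells (22.8%). The members are abundant, so the edgeR calls were also counted over other tested IDs whose mean level lies within the members' own range. That range is wide and takes in 7228 other IDs of the 12427 tested, so they are not closely matched to the members in level. Of these 7228 IDs, 1.36% were called lower in eIF4A cells, 1.63% in eIF4E, 2.89% in GFP, 3.35% in CBX1 and 4.65% in C1 cells. In bulk RNA of this kind, fewer labelled cells and less labelled RNA per cell cannot be told apart.

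Scaling decided the sign of the members' median for eIF4E and eIF4A, but in no construct the place of the members among the other IDs. Under scaling by library size the median over all IDs moved to 0.41 in CBX1, 0.18 in C1, 0.24 in GFP, 0.89 in eIF4E and 0.82 in eIF4A cells. The members' medians were then -0.45, -0.61, -0.61, 0.21 and 0.23, with 2 members called higher for eIF4E, where 35.9% of all IDs were, and 2 for eIF4A, where 31.3% were. The distance from the median of all IDs was then -0.86, -0.78, -0.85, -0.68 and -0.60. The members held 0.358% to 0.409% of all counts in unstressed inputs and 0.219% to 0.523% in pulldowns. Outside the 10 highest IDs, their share in inputs was 1.60% ± 0.046 in eIF4A, 1.46% ± 0.022 in eIF4E, 1.29% ± 0.022 in C1, 1.26% ± 0.0028 in GFP and 1.25% ± 0.050 in CBX1 cells (SD, n = 2 each). The matching pulldowns held 1.21% ± 0.11, 1.04% ± 0.19, 0.761% ± 0.19, 0.764% ± 0.10 and 0.746% ± 0.0047 (SD, n = 2 each), and the C1 pulldown other than the one that stood apart held 0.893%. Both pulldowns of each construct lay below both of its inputs on this measure. As a share of all counts, however, the eIF4A pulldowns were above their inputs, at 0.486% ± 0.0076 against 0.406% ± 0.0041 (SD, n = 2).

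**Figure D2:**
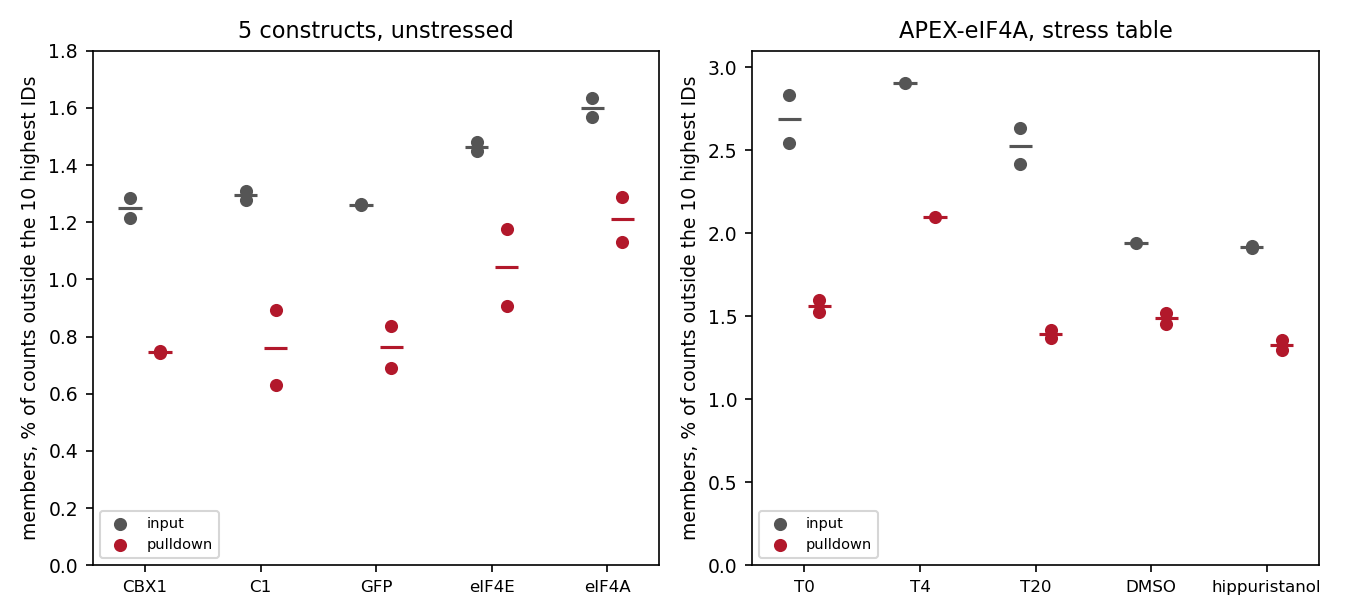
Share of each library's counts held by the 32 members, in percent of the counts outside the 10 highest IDs of the table, for unstressed cells (left) and the stress table of APEX-eIF4A cells (right). Points are libraries, grey for inputs and red for pulldowns, and bars are group means. The pulldowns lie below the inputs in every condition, and eIF4E and eIF4A have the highest shares in both fractions of the left panel.

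Leaving out single libraries changed how many members were called, while 30 to 32 of the 32 stayed below 0 in each of these fits. These fits called 0.364% to 0.548% of all IDs lower in eIF4A cells, 0.397% to 1.61% in eIF4E, 0.59% to 0.978% in GFP, 0.411% to 1.61% in CBX1 and 0.73% to 14% in C1 cells. The fit then has a lone library in a group, which is assumed to vary like the others. For CBX1 the count fell from 20 to 5 and 11 without input replicates 1 and 2, and to 6 and 12 without pulldown replicates 1 and 2. For C1 it was 9 and 7 without the inputs and 12 without pulldown replicate 1, the library that stood apart, where the median was -0.56; without pulldown replicate 2 it was 24, with a median of -1.11, in the fit that called 14% of all IDs lower. For GFP it was 9 and 11 without the inputs and 14 and 4 without the pulldowns. For eIF4E it was 5 and 1 without the inputs and 0 and 14 without the pulldowns. For eIF4A it was 0 and 1 without the inputs and 1 and 0 without the pulldowns. With only the libraries compared in the fit, C1 gave 0 members lower where 0.106% of IDs were called, and CBX1 27 where 4.55% were. In the same kind of fit GFP gave 25 members (3.45% of IDs), eIF4E 15 (2.15%) and eIF4A 22 (3.41%).

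The 32 members were not all alike. In 4 members no construct gave a call, 6 were called lower in 1 construct, 7 in 2, 7 in 3, 5 in 4 and 3 in all 5. The 3 were ENSG00000105372.5, ENSG00000198034.9 and ENSG00000115268.8, which are among the better counted members. ENSG00000105372.5 had input levels of 346 and 284 CPM in CBX1 cells and pulldown levels of 182 and 181 CPM. In C1 cells it went from 335 and 332 CPM to 166 and 214, and in GFP cells from 329 and 316 to 185 and 185. In eIF4E cells it went from 420.1 and 478 CPM to 192 and 289.9, and in eIF4A cells from 477 and 468 to 315 and 286. Every pulldown lay below every input of its construct. Its log2 fold change ran from -0.65 ± 0.15 for eIF4A to -0.90 ± 0.15 for eIF4E (edgeR adjusted p = 0.0133 and 0.000398). With scaling by library size it was 0.16 for eIF4A and -0.01 for eIF4E.

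ENSG00000198034.9 took the most counts of the members in CBX1 inputs, with 513 and 479.7 CPM against 275 and 281 in the pulldowns. In C1 cells its inputs had 531 and 501 CPM and its pulldowns 211 and 319.6, and in GFP cells 483 and 515 against 299 and 298. In eIF4E cells they had 595 and 583 CPM against 359.6 and 446, and in eIF4A cells 762 and 729 against 489 and 441. No pulldown reached an input of its own construct, although the eIF4A pulldowns were close to the inputs of CBX1 cells. The log2 fold change was -0.96 ± 0.14 for C1 and -0.55 ± 0.14 for eIF4E (edgeR adjusted p = 0.000161 and 0.0279), and scaling by library size turned it to 0.33 for eIF4E and 0.13 for eIF4A. ENSG00000115268.8, counted less often, had 103 and 103 CPM in CBX1 inputs against 55.7 and 58.4 in pulldowns, and 174 and 154 CPM in eIF4A inputs against 111 and 100.3. Its log2 fold changes were -0.86 ± 0.16 and -0.63 ± 0.15 (edgeR adjusted p = 0.00229 and 0.0233), and 0.18 for eIF4A with scaling by library size.

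The largest mean difference over the 5 constructs was that of ENSG00000177954.10, at -1.37 ± 0.43 (log2, SD over the constructs). This member rests on few counts. In C1 cells it had 18.5 and 28.7 CPM in the inputs and 6.59 and 4.28 in the pulldowns, which were 12 and 10 counts. The C1 log2 fold change was -2.11 ± 0.44 (edgeR adjusted p = 0.00457), and -2.44 without C1 pulldown replicate 1. In CBX1 cells it was -1.26 ± 0.37, which missed the threshold (edgeR adjusted p = 0.0508). Next was ENSG00000138326.17, with a mean of -1.07 ± 0.25 (SD over the constructs). Its levels were 149.7 and 163 CPM in CBX1 inputs against 76.5 and 61.2 in pulldowns, and 156 and 156 in GFP inputs against 77.8 and 55.5. In C1 cells the inputs had 122 and 133 CPM, and the pulldowns 25.2 in the replicate that stood apart and 73.7 in the other. The C1 log2 fold change of -1.33 ± 0.25 became -0.81 without that replicate, still called by edgeR (adjusted p = 0.0108).

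The smallest mean difference was that of ENSG00000149273.13, at -0.27 ± 0.14 (log2, SD over the constructs). It had 292 and 275 CPM in CBX1 inputs and 192 and 206 in pulldowns, and was called lower there alone (log2 fold change -0.51 ± 0.13, edgeR adjusted p = 0.0246). In eIF4A cells its pulldowns, at 407 and 337 CPM, overlapped its inputs, at 406.5 and 417. In C1 cells they were 265 and 331 CPM against 350.1 and 334. It was counted about as often as ENSG00000105372.5 and is among the well-counted members. The 4 members with no call in any construct were ENSG00000124614.12, ENSG00000008988.8, ENSG00000213741.7 and ENSG00000170889.12, with mean log2 fold changes of -0.89, -0.57, -0.57 and -0.41. Between pairs of constructs the members' log2 fold changes correlated at 0.30 to 0.60 (Pearson's r over 32 members, which are not independent replicates and share library depth within a construct).

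**Figure D3:**
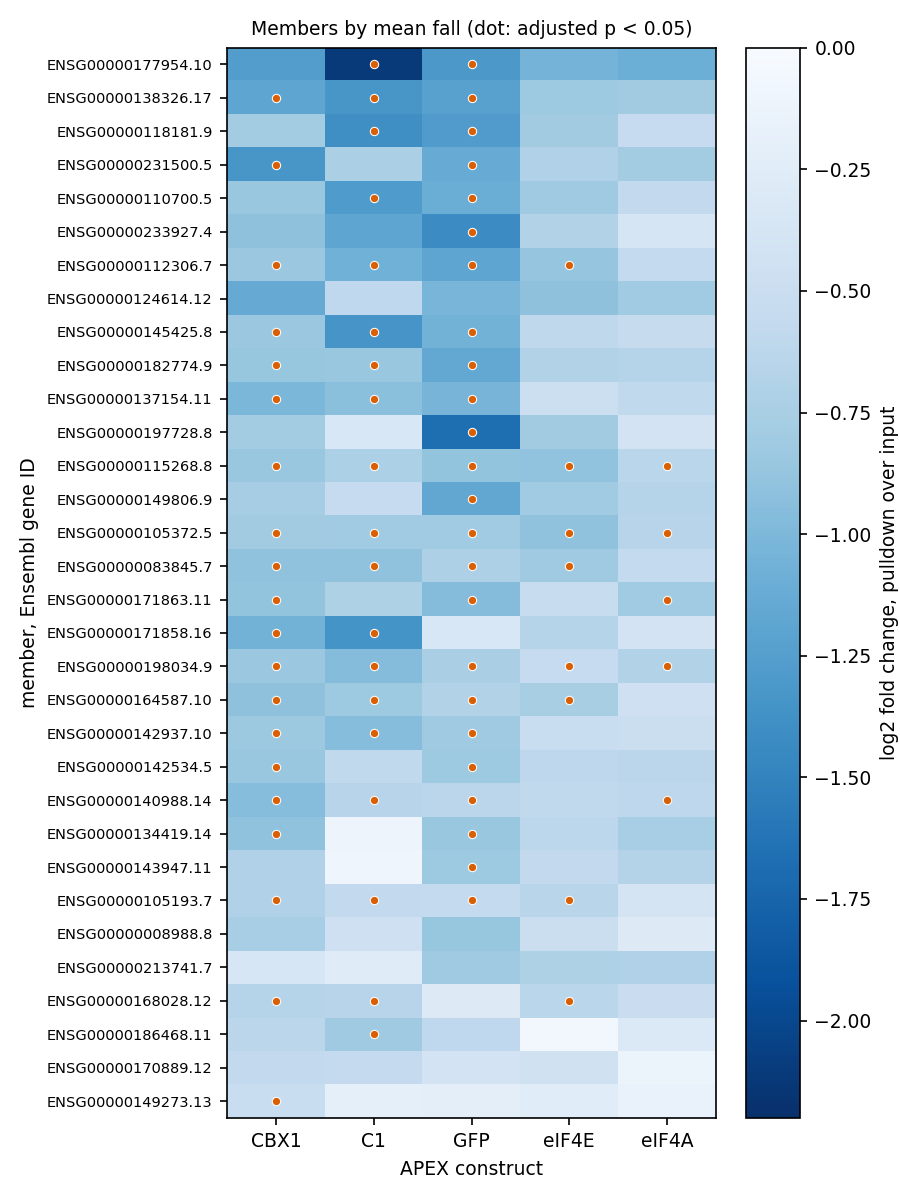
Log2 fold change of pulldown over input for every member (rows, ordered by the mean over constructs) in 5 APEX constructs in unstressed cells; darker blue is lower in the pulldown and orange dots mark an edgeR adjusted p under 0.05. ENSG00000177954.10 stands at the top with -2.11 in C1 cells, and ENSG00000149273.13 at the bottom with -0.15 in eIF4A cells. With scaling by library size the members' median lies above 0 for eIF4E and eIF4A.

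Whether a construct differed from untargeted GFP in the pulldown over input of the members was tested as a difference of differences. No member was called by edgeR in CBX1, C1, eIF4E or eIF4A against GFP, or in eIF4A against eIF4E. DESeq2 called none either, but gave an adjusted p to only 15 members for CBX1, 15 for eIF4E and 19 for eIF4A against GFP. Among all tested IDs edgeR called 0.0241% lower and 0.137% higher for CBX1 against GFP, and 0% in either direction for the other 4, so these tests made few calls anywhere. At an unadjusted p under 0.05 there were 4 members in C1 against GFP, 3 in eIF4A against GFP, 1 in eIF4E against GFP and 0 in the remaining comparisons, where 8.41%, 3.31% and 3.8% of all IDs reached it in the first 3. The members' median difference from GFP was 0.01 for CBX1 and 0.01 for C1 (-0.08 with scaling by library size and -0.03 without the 10 highest IDs), close to those of all IDs (0.02 and -0.00). For C1 it was 0.29 without C1 pulldown replicate 1, and -0.30 without replicate 2, where 4 members were called lower (5.5% of IDs) and 1 higher (1.59%). For eIF4E the median was 0.26, with 23 of 32 members above 0, and for eIF4A 0.24, with 30 of 32, against 0.03 and 0.04 over all IDs. With scaling by library size these medians were 0.88 and 0.80, with 32 of 32 members above 0 in each, and those of all IDs 0.65 and 0.59. Without eIF4E pulldown replicate 2 the eIF4E median was 0.00, with 16 members above 0. The eIF4E and eIF4A comparisons share the GFP libraries.

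The members with the smallest unadjusted p for C1 against GFP moved in both directions. ENSG00000143947.11 had 69.2 and 44.1 CPM in C1 pulldowns against 54.8 and 66.2 in the inputs, and 39.9 and 30.6 CPM in GFP pulldowns against 59.0 and 65.5. The C1 libraries overlapped and the GFP libraries did not, and the difference between the constructs was 0.72 ± 0.29 (edgeR adjusted p = 0.48). ENSG00000171858.16 was the other way round. It had 10.4 and 17.6 CPM in C1 pulldowns against 35.1 and 38.3 in inputs, and 33.6 and 24.5 CPM in GFP pulldowns against 32.7 and 40.3, a difference of -1.02 ± 0.43 (edgeR adjusted p = 0.509) that was -0.73 without C1 pulldown replicate 1.

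Without the correction for input, most members lay above their GFP level in the pulldowns of both initiation factor constructs, and fewer calls were made between inputs. Between pulldowns, 10 members were called higher in eIF4A than in GFP cells, where 0.909% of all tested IDs were, and all 32 lay above 0 with a median of 0.63 (all IDs, -0.00). Both eIF4A pulldowns lay above both GFP pulldowns for 30 members (23.6% of IDs). For eIF4E 7 members were called higher against 2.74% of IDs, with 31 of 32 above 0, a median of 0.44 (all IDs, 0.01) and 19 members separated upwards (24.8% of IDs). Between inputs the medians were 0.39 for eIF4A and 0.28 for eIF4E, with 27 of 32 members above 0 in each, and 2 members (0.346% of IDs) and 1 member (1.34%) were called higher. With scaling by library size the input medians were 0.02 and -0.07, so the direction between eIF4E and GFP inputs turned with the scaling, while the pulldown medians were 0.81 and 0.71. The median of all IDs moved with them, to -0.37 and -0.36 between inputs and to 0.19 and 0.28 between pulldowns. CBX1 against GFP pulldowns gave 0 calls in edgeR, where 0.829% of IDs were called lower and 0.7% higher, and 0 calls in DESeq2, with 4 members and 13.7% of all IDs at an unadjusted p under 0.05 and a median of 0.03. C1 against GFP pulldowns gave 1 call higher, ENSG00000143947.11 (log2 fold change 0.68 ± 0.21, edgeR adjusted p = 0.0498), where 3.29% of all IDs were called higher. That call rested on the fit: without C1 pulldown replicate 1 there were 2 calls higher (2.72% of IDs), without replicate 2 there were 7 lower (15% of IDs) and 1 higher (11.5%), and without either GFP pulldown 0.

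The member furthest past the threshold between eIF4A and GFP pulldowns was ENSG00000137154.11. It had 246 and 212 CPM in eIF4A pulldowns and 129 and 106 in GFP pulldowns (log2 fold change 0.97 ± 0.17, edgeR adjusted p = 0.00225). The eIF4E pulldowns, at 185 and 234 CPM, also lay above both GFP pulldowns (0.84 ± 0.17, edgeR adjusted p = 0.00274). Its inputs had 342 and 344 CPM in eIF4A cells, 304 and 281 in eIF4E cells and 250.5 and 229.5 in GFP cells, in the same order. ENSG00000233927.4 had the largest difference, with 24.8 and 19.1 CPM in eIF4A, 29.4 and 19.7 in eIF4E and 8.27 and 5.68 in GFP pulldowns. The GFP values are 17 and 13 counts. The log2 fold changes over GFP were 1.66 ± 0.36 for eIF4A and 1.81 ± 0.36 for eIF4E (edgeR adjusted p = 0.0142 and 0.00283). ENSG00000149273.13 was the member called higher between inputs for both, at 406.5 and 417 CPM in eIF4A and 429 and 377 in eIF4E inputs against 266 and 271 in GFP inputs. Leaving out any 1 of the eIF4A or GFP pulldowns lowered the number of calls higher among the members and among all IDs alike. The members' median for eIF4A over GFP pulldowns then ran from 0.48 to 0.74, with 0 members below 0. For eIF4E over GFP pulldowns the calls higher among all IDs also fell in each such fit. The members' median there ran from 0.14, without eIF4E pulldown replicate 2, to 0.65, with 2 to 10 members below 0. Every input call was lost without any 1 of the 4 inputs compared, and with only the libraries compared the inputs gave 14 calls higher for eIF4A (3.25% of IDs) and 12 for eIF4E (6.83%).

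**Figure D4:**
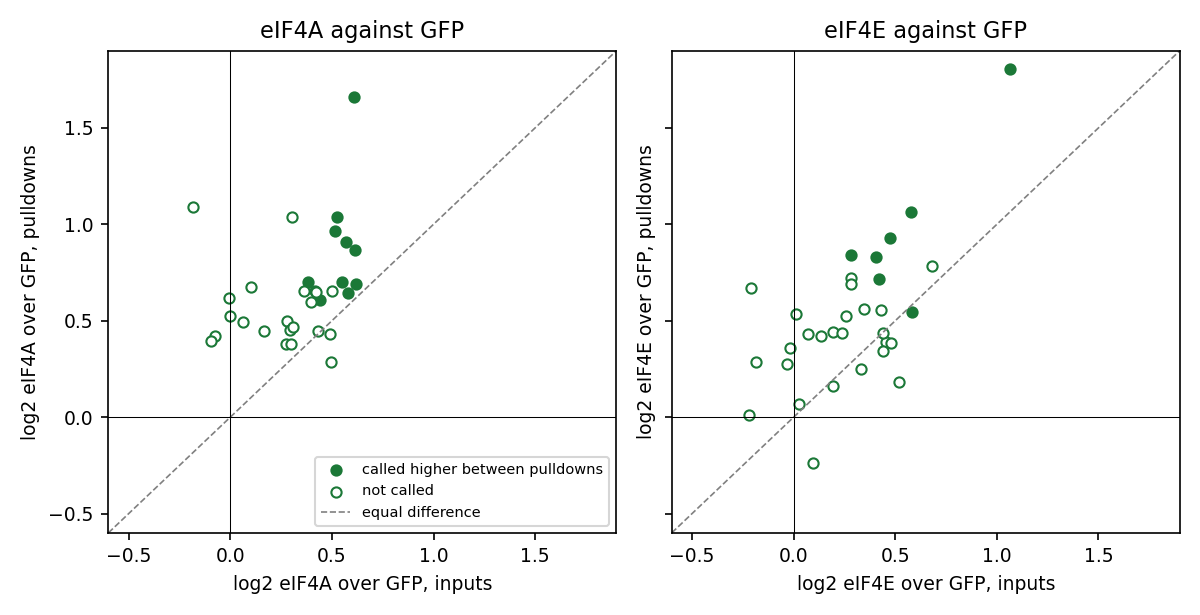
Log2 fold change of each member over APEX-GFP cells between inputs (horizontal) and between pulldowns (vertical), for eIF4A (left) and eIF4E (right), TMM scaling, 2 libraries a group. Filled points were called higher between pulldowns by edgeR, and the dashed line marks an equal difference in both fractions. All 32 points lie above 0 on the vertical axis for eIF4A and 31 for eIF4E; the horizontal medians of 0.39 and 0.28 become 0.02 and -0.07 with scaling by library size.

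In the stress table no difference of a member between heat-shocked and unstressed APEX-eIF4A cells passed the edgeR test. T20 against T0 gave 0 called members between inputs, 0 between pulldowns and 0 for the difference of the fractions (edgeR), and DESeq2 gave 0, 2 lower and 0, where it called 2.79% of all IDs lower and 3.9% higher between pulldowns. Of all tested IDs, edgeR called 0.024% lower and 0.018% higher between inputs, 0.048% and 0.0959% between pulldowns, and 0% for the difference. At an unadjusted p under 0.05 there were 0, 4 and 2 members, against 1.37%, 17.1% and 7.35% of all IDs in either direction. The 4 of 32 between pulldowns were not above that share, but all 4 were lower, where 6.88% of all IDs were lower and 10.3% higher. The 2 adjusted for input were also lower, where 3.57% of all IDs were lower and 3.78% higher. The T0 and T20 inputs shared a deviation that the main fit leaves in its spread (same-numbered libraries opposed, r = -0.70). A crossed replicate block (T0 numbers swapped) called 0 members between inputs, where it called 624 of 16825 IDs lower and 1445 higher. With only the libraries compared, 0 members were called, where 4 of those IDs were lower and 375 higher. The small shares called between inputs by the main fit thus do not show unchanged inputs. The members' median was -0.08 between inputs (all IDs, 0.01), with 21 of 32 below 0. Between pulldowns it was -0.35 (all IDs, 0.09), with 27 of 32 below 0, and adjusted for input it was -0.22 (all IDs, 0.20). Over 6957 other IDs within the members' own range of mean level, the medians were -0.14, 0.03 and 0.16. Between inputs the members' median thus lay above that of these IDs. With scaling by library size the members' medians were 0.08, 0.10 and 0.05, and without the 10 highest IDs 0.07, -0.07 and -0.11, so their sign is not settled. With library size the medians of all IDs were 0.18, 0.51 and 0.41. Both T20 pulldowns lay below both T0 pulldowns for 12 of 32 members, where 12.8% of all IDs did so, and in the other direction for 0 members, where 19% of all IDs did.

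The 4 members at an unadjusted p under 0.05 between T20 and T0 pulldowns were ENSG00000083845.7, ENSG00000198034.9, ENSG00000168028.12 and ENSG00000164587.10. ENSG00000083845.7 had 694 and 1139.8 CPM in T0 pulldowns, 995 in the T4 pulldown and 423 and 381 in T20 pulldowns. Its T0 inputs, at 967 and 1479 CPM, differed from each other as much as they did from the T20 inputs, at 1219.8 and 860.0. The difference between pulldowns was -1.19 ± 0.32 (edgeR adjusted p = 0.127), and DESeq2 called it (adjusted p = 0.0344). ENSG00000198034.9 had 1478 and 1902 CPM in T0 pulldowns against 873 and 1089 in T20 pulldowns, a difference of -0.78 ± 0.25 (edgeR adjusted p = 0.163). For the other 2 the differences were -0.90 ± 0.34 and -0.70 ± 0.28 (edgeR adjusted p = 0.203 and 0.219). The T4 libraries, 1 per fraction and without a test, had the largest share of counts in the members among libraries of their fraction. They held 2.59% of T4 input counts (95% Wilson interval 2.58% to 2.60%) and 1.64% of T4 pulldown counts (1.62% to 1.67%), intervals that cover counting error only. The T0 inputs held 2.36% ± 0.017 and the T20 inputs 2.24% ± 0.090, and the pulldowns 1.15% ± 0.13 and 1.15% ± 0.019 (SD, n = 2 each). In the T4 input 18 of 32 members lay above all T0 and T20 inputs and 0 below, where 15.5% of all IDs lay above and 13.9% below. In the T4 pulldown 13 members lay above (18.2% of IDs) and 1 below (13.3%).

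Hippuristanol against DMSO, between pulldowns, gave 0 called members by edgeR and by DESeq2, with 1 at an unadjusted p under 0.05, where 14.4% of all IDs were. Over all IDs edgeR called 0% in either direction, and DESeq2 0.815% lower and 3.51% higher. The members were spread evenly, with 17 below and 15 above 0 and a median of -0.02 (all IDs, 0.05). Both hippuristanol pulldowns lay below both DMSO pulldowns for 6 members (9.61% of IDs) and above for 8 (18.8% of IDs). The 1 member was ENSG00000233927.4, with 171 and 108 CPM under hippuristanol against 84.8 and 45.5 under DMSO, a difference of 1.09 ± 0.47 (edgeR adjusted p = 0.308). The members' share of counts was 1.05% ± 0.0040 in hippuristanol and 1.21% ± 0.035 in DMSO pulldowns (SD, n = 2 each). The inputs held 1.78% ± 0.041 under hippuristanol (SD, n = 2) and 1.81% in the lone DMSO input (95% Wilson interval 1.80% to 1.82%). Between inputs the members' median was 0.03 (all IDs, 0.05). With a lone DMSO input, the lack of calls in that comparison does not show an absence of change. DESeq2 was not run on it.

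**Figure D5:**
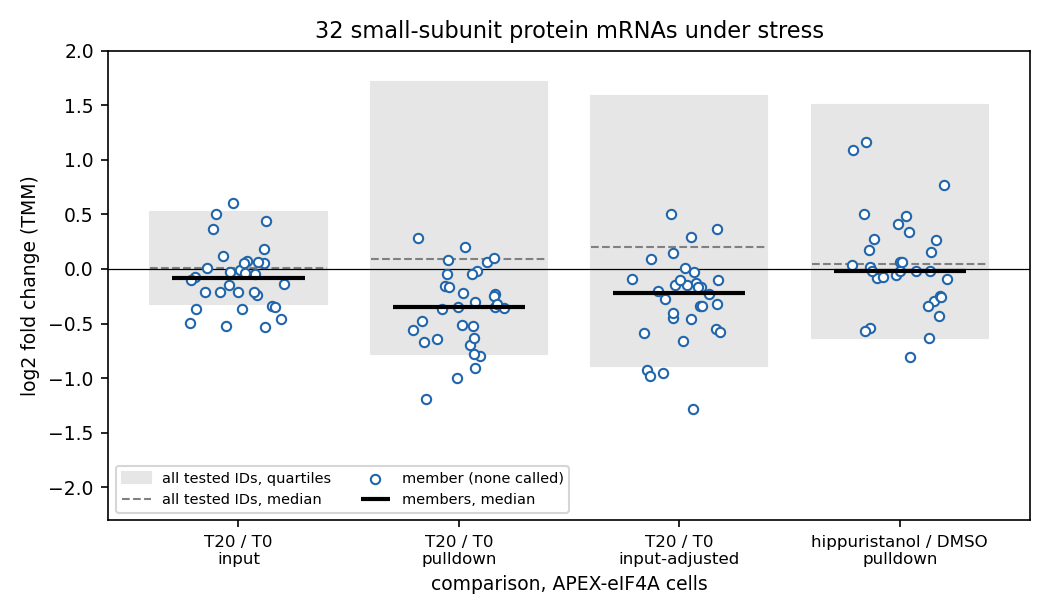
Log2 fold change of the 32 members in APEX-eIF4A cells for T20 over T0 between inputs, between pulldowns and with the input difference taken off, and for hippuristanol over DMSO between pulldowns (TMM scaling, 2 libraries a group). Circles are members, of which edgeR called none, black bars are their medians, and grey boxes and dashed lines are the quartiles and medians of all 16678 tested IDs. The medians lie at -0.08, -0.35, -0.22 and -0.02, and the first 3 lie above 0 with scaling by library size.

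Pulldown over input in the stress table had members on both sides of 0 in each condition, and its size depended on scaling. The tables were scaled and tested separately, so where values of both are given they stand side by side without a test. At T0 0 members were called by edgeR (8 at an unadjusted p under 0.05, where 10.7% of all IDs were; DESeq2 called 1 higher and 0.905% of IDs) where 0.06% of IDs were called lower and 0.3% higher. Over all IDs the T0 median was -0.55, and over 6957 other IDs within the members' range of mean level it was -0.35. The members' T0 median was above both at -0.23, with 21 of 32 members below 0. It was 0.07 with DESeq2, -0.76 with scaling by library size (27 below 0) and -0.48 without the 10 highest IDs (26 below 0), where all IDs had -0.13, -1.05 and -0.78. Both T0 pulldowns lay below both inputs for 11 members (39.6% of IDs) and above for 6 (7.45% of IDs). At T20 1 member was called lower (0.12% of IDs), with a median of -0.60 against -0.29, and 22 members were separated downwards (37.9% of IDs) and 4 upwards (15.5%). With hippuristanol 1 member was called higher (0.246% of IDs), with a median of -0.32 against -0.36, and 16 members were separated downwards (36.4%) and 6 upwards (11.8%). Over the same 6957 IDs the medians were -0.20 at T20 and -0.24 with hippuristanol, and the members' medians lay below both. The difference between the tables was not tested.

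The member called lower at T20 was ENSG00000105372.5, 1 of the 3 called in every unstressed construct. It had 4683 and 3897 CPM in T20 inputs against 1219 and 1832 in pulldowns (log2 fold change -1.49 ± 0.32, edgeR adjusted p = 0.0394). At T0 it had 3845 and 8251 CPM in inputs against 1828 and 2946 in pulldowns (-1.34 ± 0.32, edgeR adjusted p = 0.08). The call at T20 was lost without T20 input replicate 1 and without either T20 pulldown. The member called higher with hippuristanol was ENSG00000142534.5. It had 78.6 and 140.1 CPM in hippuristanol inputs against 298 and 488 in pulldowns (1.85 ± 0.37, edgeR adjusted p = 0.0306), a call lost without any 1 of these 4 libraries. Its pulldowns lay above its inputs at T0 as well (431 and 497 CPM against 227 and 150.2) and at T20 (490.3 and 408 against 244 and 166). It was the 1 member of 32 with that separation in all 3 conditions, which 1.89% of all IDs showed, and was noticed after its values were seen. In unstressed cells of the other table, under TMM scaling, the same ID was lower in both eIF4A pulldowns than in both inputs (-0.62 ± 0.17, edgeR adjusted p = 0.0549). It was called lower there for CBX1 and GFP.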

How the data were processed

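Counts per versioned Ensembl gene ID were deposited for 37 libraries in 2 tables. Per the submitters' processing notes, the authors made these counts with cutadapt, HISAT2, featureCounts and GRCh38. The sources used here give no versions, strand setting or handling of ambiguous reads. The labels name no molecular identifiers, so amplified copies count as separate reads. The depth per library is given with the results.

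Groups and replicate numbers came from titles. A description shared by 2 samples was resolved by the table that holds the column. The members and the lists were chosen with earlier results of these data known.

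Each table was fitted by itself with edgeR 4.0.16 under R 4.3.3 (1 mean for each group, filterByExpr, TMM, robust glmQLFit, quasi-likelihood F test, Benjamini-Hochberg over all tested IDs). A member at an adjusted p under 0.05 is called. The standard error is the size of the log2 fold change over the square root of F. The edgeR step was also run on counts simulated from its own fit with planted changes. The outcome is not given here, and no result above rests on it. Comparisons between constructs within a fraction, pulldown over input in the stress table, and hippuristanol over DMSO between inputs were added after the data were seen. Wilson intervals are for shares.

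No ID matched the gene table by symbol, so lists fixed by symbol (large-subunit proteins, other TOP mRNAs, initiation factors, heat shock genes, cell type markers) could not be applied. Named members are those called, the 6 with the smallest unadjusted p where fewer than 6 were called, and those with the largest and smallest change; not all of these are printed.

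Same-numbered inputs and pulldowns deviated from their group means with correlations of -0.07 to 0.14 over 2099 IDs in the unstressed table, so the numbers were not taken as pairs. Alternatives were library size, a total without the 10 highest IDs, no count filter, a fit of only the libraries compared, DESeq2 1.42.0, pulldowns without input correction, a replicate block, and single libraries left out.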

Additional observations from a re-analysis of the deposited data

Results flagged for a closer look

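For 6 members both eIF4A pulldowns lay below both inputs in the unstressed table, while in the stress table both T0 pulldowns lay above both T0 inputs. Of the 12173 IDs tested in both tables, 1.91% showed this pattern. Its unstressed part alone held for 30 of 32 members (22.8% of IDs tested there). Its T0 part alone held for 6 of 32 members (7.45% of IDs tested there). The T0 log2 fold changes were 0.33 for ENSG00000112306.7, 0.91 for ENSG00000118181.9, 0.59 for ENSG00000134419.14, 1.30 for ENSG00000142534.5, 1.34 for ENSG00000177954.10 and 0.76 for ENSG00000213741.7. The unstressed values of the same IDs were -0.56, -0.54, -0.76, -0.62, -1.10 and -0.70. The difference was not tested, because the tables were scaled separately, and no member of the 6 was called by edgeR at T0. These values are under TMM scaling. With scaling by library size the median of all 32 members was 0.23 in unstressed eIF4A cells and -0.76 at T0, and the pattern was not counted under that scaling. ENSG00000177954.10 rests on 64 and 19 counts in the T0 pulldowns.

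The single T4 libraries enter no test. The members' share of counts there, 2.59% in the input and 1.64% in the pulldown, was above that of both T0 libraries of the same fraction.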

How the results depend on the processing

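Counts of IDs in brackets are all IDs called in the same direction by the same fit. With scaling by library size, the members called lower in pulldown over input were 3 in CBX1 cells (62 of 12427 IDs) and 4 in GFP cells (84 IDs). In eIF4E and eIF4A cells 0 were called lower (63 and 54 IDs), and 2 members each were called higher (35.9% and 31.3% of all IDs). The medians of these 2 constructs turned to 0.21 and 0.23. Single members turned too: ENSG00000115268.8 to 0.18, ENSG00000105372.5 to 0.16 and ENSG00000198034.9 to 0.13 for eIF4A, and ENSG00000198034.9 to 0.33 for eIF4E. The same scaling gave 1 member higher for eIF4E over GFP adjusted for input (43 of 12427 IDs) and 16 for eIF4E over GFP between pulldowns (760 IDs). Over GFP between inputs it gave 0 higher for eIF4E (55 IDs), with a median of -0.069, and 0 for eIF4A (8 IDs). It turned the medians of T20 over T0 to 0.10 between pulldowns and 0.047 adjusted for input. In pulldown over input it called 3 members lower at T0 (137 of 16678 IDs) and 3 at T20 (43 IDs). With hippuristanol it called 1 lower (24 IDs) and 0 higher (32 IDs). Without the 10 highest IDs in the total, 4 members were lower for eIF4E (116 of 12427 IDs) and 1 for eIF4A (77 IDs). Between eIF4A and GFP inputs 0 were higher (27 IDs). In T0 and T20 pulldown over input 3 and 2 were lower (43 and 31 of 16678 IDs), and with hippuristanol 0 were higher (34 IDs). Without a count filter, 1 member was lower in T20 over T0 pulldowns (61 of 34804 IDs), and 2 each in T0 and T20 pulldown over input (29 and 49 IDs).

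DESeq2 called 10 members lower for eIF4A (135 of 12427 IDs), and 2 and 6 higher between eIF4E and eIF4A inputs and those of GFP (159 and 89 IDs). It called 2 lower in T20 over T0 pulldowns (466 of 16678 IDs) and 1 higher in T0 pulldown over input (151 IDs), where the median turned to 0.074. In T20 pulldown over input it called 4 lower (370 IDs) and 1 higher (262 IDs). With only the libraries compared, the counts were 22 lower in eIF4A, 15 in eIF4E and 0 in C1 cells, 12 and 14 higher between eIF4E and eIF4A inputs and those of GFP, and 0 in T20 and hippuristanol pulldown over input. Without the input correction, 1, 7 and 10 members were higher for C1, eIF4E and eIF4A over GFP. The 1 call between C1 and GFP pulldowns became 0 with library size, without the 10 highest IDs and without a count filter. Each of these fits called 1 member lower (923 and 542 of 12427 and 561 of 34690 IDs). That call also became 0 with the replicate block, DESeq2 and only the libraries compared. The cause of these shifts was not tested.

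With single libraries left out, members called lower in pulldown over input numbered 0 to 1 in eIF4A, 0 to 14 in eIF4E, 4 to 14 in GFP, 7 to 24 in C1 and 5 to 12 in CBX1 cells. In the stress table they ranged from 0 to 2 at T0 and 0 to 1 at T20, and those higher with hippuristanol from 0 to 0. For C1 over GFP adjusted for input, 0 to 4 were lower and 0 to 1 higher, and between pulldowns 0 to 7 lower and 0 to 2 higher. Members higher over GFP ranged from 0 to 7 for eIF4E and 0 to 6 for eIF4A between pulldowns, and from 0 to 0 between inputs for both.

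The replicate block left the counts for pulldown over input at 4 in eIF4A, 8 in eIF4E, 25 in GFP, 19 in C1 and 19 in CBX1 cells. Of all 12427 IDs, 112, 150, 239, 447 and 262 were lower there. The block took the call between eIF4A and GFP inputs from 2 to 1 (39 IDs higher). It took that of T20 pulldown over input from 1 to 0 (14 of 13834 IDs lower). Deviations of same-numbered T0 and T20 inputs were opposed (r = -0.70), and a crossed replicate block called 0 members between them, where it called 3.71% of all IDs lower and 8.59% higher. Those of the hippuristanol inputs went with T20 inputs (r = 0.64) and against T0 inputs (r = -0.79). Stress pulldowns held 707356 to 1221213 counts against 4540426 or more in inputs, and their replicate pairs correlated at 0.613 to 0.730 across IDs. Both limit what a missed call or a separation there shows.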
